A study of Bos grunniens with 3 samples.

Results

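*NMB* and *DUOX1* were the members described here, picked because their whole-library level in telogen stood among the farthest above both anagen and catagen. Their rows were found by symbol, 2 of the 26924 genes on the gene list, of which 15765 carry a symbol (*NMB*, ENSBGRG00000010547; *DUOX1*, ENSBGRG00000020085). The libraries were made from scapular skin of healthy Tianzhu white yak (Bos grunniens) about 2 years old. Hair follicles were pulled after dispase digestion, their cells were released with trypsin, and 10x Genomics 3′ single-cell libraries were built, 1 in anagen (the growth stage of the hair cycle), 1 in catagen (regression) and 1 in telogen (rest). All 3 groups shared breed, site, age and digestion, and their labels differ by stage, although the protocol text deposited with the catagen library names anagen. The Cell Ranger version of their counts also differed. The study's published methods describe more than one yak, with skin taken in anagen and catagen, and do not name telogen. They do not say which animal gave which library. Each stage has 1 library and so neither a replicate nor a test: animal, season, library, Cell Ranger version and stage cannot be told apart, and every interval below is a 95% interval for counting error only.

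After cells with under 200 detected genes were left out, 11987 anagen, 12062 catagen and 14502 telogen cells remained, with medians of 5256, 3350 and 5583.5 UMIs (unique molecular identifiers, counted molecules). The deposited anagen library held 12000 cells, none under 2404 UMIs, whereas catagen and telogen cells went down to 500 UMIs. The libraries shared 40 to 49 cell barcodes with each other. Telogen held 80 cells with more than 50000 UMIs against 15 in anagen and 3 in catagen, and those cells carried 6.67% of its *NMB* and 4.74% of its *DUOX1* UMIs, beside 5.76% of all its UMIs. The labelled cell type, hair follicle, was covered mainly by epithelial cells. The summed level of 4 endothelial markers was 11.8, 4.73 and 7.03 UMIs per 1000000 UMIs of the library (CPM) in anagen, catagen and telogen, and that of 4 mesenchymal markers with a row was 37.6, 0.563 and 3.21 CPM.

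*NMB* encodes neuromedin B, a small secreted peptide of the bombesin family that acts through the G protein-coupled receptor NMBR and is best known from sensory neurons, smooth muscle and endocrine tissue. *DUOX1* encodes a dual oxidase, a membrane NADPH oxidase that releases hydrogen peroxide at the cell surface when calcium rises, and it needs the maturation factor DUOXA1 to leave the endoplasmic reticulum. DUOX1 is known from thyroid, airway lining and keratinocytes. In the resting follicle the lower part has regressed, and what remains is the upper follicle with its opening, the bulge with its stem cells and the small germ beneath it.

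*NMB* gave 6649 UMIs in anagen, 4276 in catagen and 25383 in telogen, which is 80.3 CPM (78.4 to 82.2), 83.0 CPM (80.5 to 85.5) and 245 CPM (242 to 248). The anagen and catagen levels lay close together and the telogen level lay apart from both. The ratio of telogen was 3.06-fold over anagen (log2 1.61, 1.57 to 1.65) and 2.96-fold over catagen (log2 1.56, 1.52 to 1.61). *DUOX1* gave 2003, 1246 and 7382 UMIs, or 24.2 CPM (23.1 to 25.3), 24.2 CPM (22.9 to 25.6) and 71.4 CPM (69.8 to 73.0). Its ratio was 2.95-fold over either library (log2 1.56, 1.49 to 1.63 over anagen and 1.47 to 1.65 over catagen). These ratios are the values the genes were chosen by and are given as a description. Both genes were at least 2-fold higher in telogen than in both other libraries, as were 64 of the 6148 genes that had at least 10 CPM in any library (1.04%). Separately, 3.0% of 5733 genes were at least 2-fold higher over anagen and 4.1% of 5971 over catagen.

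The ranking took every named gene that reached 50 CPM in any library, 1734 in all. Ranked by the ratio of telogen to the nearer of the other libraries, *NMB* was 2nd and *DUOX1* was 3rd. *IGFBP6*, a secreted binding protein for insulin-like growth factors, came before them with 160 CPM in telogen and a log2 ratio of 1.69. *PDLIM4* (log2 1.44), the metallothionein *MT2A* (1.41) and the proteasome subunit *PSMB10* (1.36) came after them. Unlike *IGFBP6*, whose catagen level of 9.26 CPM lay far under its anagen level of 49.6 CPM, both members stood at nearly the same level in anagen and catagen. The log2 ratio of catagen over anagen was 0.05 for *NMB* (-0.01 to 0.10). The median log2 ratio of all genes tested was -0.18 over anagen and -0.25 over catagen, and scaling by the median of ratios placed the members higher, at log2 1.86 and 2.07 for *NMB* and 1.81 and 2.06 for *DUOX1*.

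**Figure D1:**
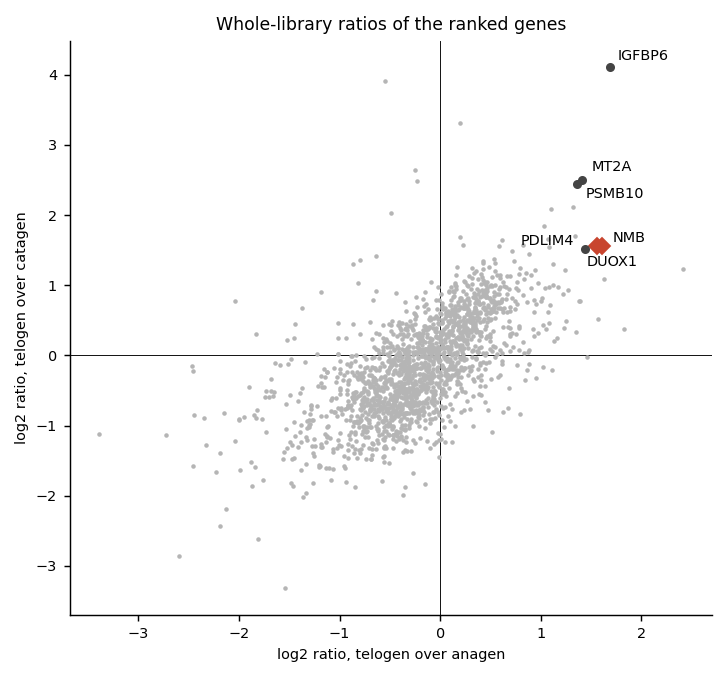
Log2 ratio of whole-library CPM, telogen over anagen (horizontal) and telogen over catagen (vertical), for the 1734 named genes that reached 50 CPM in any library, each a grey point. *NMB* and *DUOX1* (red diamonds) lie next to each other at about 1.6 on both axes, and the dark points are the genes ranked beside them.

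To compare cells at equal depth, each cell was thinned to 1500 UMIs and shallower cells were left out, 0 in anagen, 2263 in catagen and 2932 in telogen. *NMB* was then found in 7.91% of anagen cells (7.43 to 8.41), 8.43% of catagen cells (7.89 to 8.997) and 22.3% of telogen cells (21.6 to 23.1). Without thinning the shares were 20.8%, 14.9% and 44.2%. *DUOX1* was found in 3.46%, 3.27% and 9.87% of the thinned cells, and in 12.6%, 7.71% and 28.9% without thinning. Telogen was highest for both genes with and without thinning, and the thinned anagen and catagen shares had overlapping intervals.

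The telogen excess of *NMB* was found among strongly and weakly positive cells alike. Thinned cells with 1 *NMB* UMI made up 5.96%, 6.16% and 15.6% of the libraries, those with 2 to 4 UMIs 1.79%, 2.15% and 5.96%, and those with 5 or more 0.159%, 0.112% and 0.761%. Before thinning, 522 telogen cells held at least 10 *NMB* UMIs and together 43.9% of its UMIs, against 121 anagen cells with 33.4% and 63 catagen cells with 23.2%. The highest cell held 163 *NMB* UMIs in telogen, 74 in anagen and 37 in catagen. *DUOX1* was spread more thinly. Of its positive telogen cells after thinning, most held a single UMI (8.81% of all cells against 1.05% with 2 to 4), and 19 telogen cells reached 10 UMIs before thinning.

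**Figure D2:**
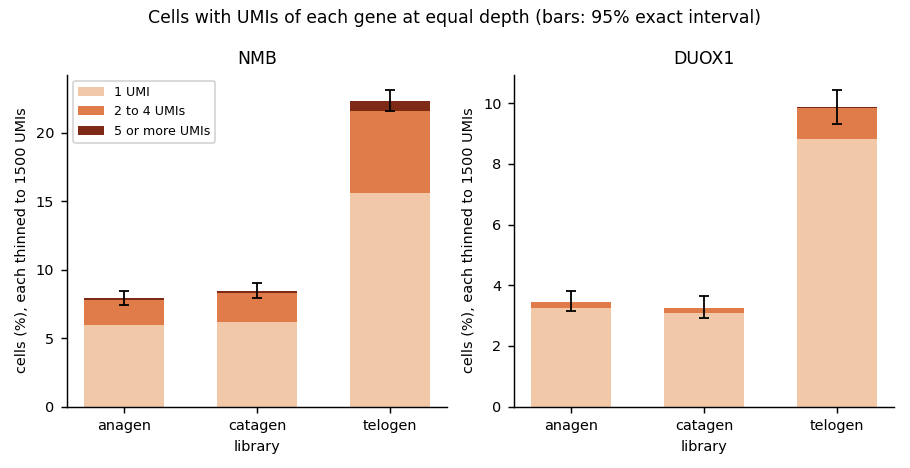
Share of cells with UMIs of *NMB* (left) and *DUOX1* (right) in each library after every cell was thinned to 1500 UMIs, split by the number of UMIs. Black bars are exact 95% intervals of the whole share. Telogen reaches 22.3% and 9.87%, and anagen and catagen lie at 7.91% and 8.43% for *NMB* and at 3.46% and 3.27% for *DUOX1*.

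Which cells carried the genes was read from 25 clusters built on the 3 libraries together, with both members and all genes of the pathway lists kept out of the clustering. Each cluster is called here by its 2 leading genes outside those lists. A cell type is named only where at least 3 markers of a fixed list were raised and 1 of them was among the 10 leading genes. PDZRN3/TPM1 was outer root sheath-like (*KRT17*, *KRT14*, *KRT5*, *SOX9*, *PDZRN3*), KRT27/KRT71 was inner root sheath-like (*KRT71*, *KRT25*, *KRT27*, *KRT28*), KRT1/SEMA3C and KRT2/KRT77 were suprabasal epidermis-like, and ENPP1/SEMA3E was germ and bulge-like, led by *PTHLH*. C3/LCN2 met the germ and bulge list (*WIF1*, *LGR5*, *LHX2*) and the hair shaft list of the study (*IGFBP5*, *SPARC*, *POSTN*). KRT79/ACKR4, the cluster that matters most below, was led by *KRT79*, *ACKR4*, *QPCT*, *KRT17* and *DUOX1* itself, although *DUOX1* had not been used to build it. It had 2 of 5 upper follicle markers raised and 4 of 5 suprabasal markers, none of the latter among its leading genes, and is left without a cell type name.

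*NMB* was highest in every library in 4 clusters, FGF18/PMP22, PDZRN3/TPM1, CA6/ATP12A and GABRP/KRT75. FGF18/PMP22, which carries raised *KRT17*, *SOX9*, *PDZRN3*, *LHX2* and *LGR5*, had 502 CPM in anagen, 596 in catagen and 1002 in telogen (933 to 1076). The outer root sheath-like cluster followed with 483, 450 and 783 CPM. GABRP/KRT75, led by *GABRP*, *KRT75*, *AGR2*, *TF* and *APOA1*, had 281, 252 and 799 CPM. It met both the study's keratinocyte list (5 of 5 markers) and the upper follicle list (4 of 5, without *KRT79*), which share *SPINK5*, *KLK10* and *KLK7*. Its *KRT75* is on the companion layer list, of which 2 of 3 genes have a row, so that list could not reach 3 raised markers. CA6/ATP12A, led by *CA6*, *ATP12A*, *ASPRV1*, *CNFN* and *KRT23* with all 5 upper follicle markers raised, had 492, 335 and 571 CPM. In telogen the first cluster lay above the others, GABRP/KRT75 and PDZRN3/TPM1 did not differ beyond their intervals, and CA6/ATP12A came next. In anagen FGF18/PMP22, CA6/ATP12A and PDZRN3/TPM1 overlapped. After thinning, 67.1% of telogen cells in FGF18/PMP22, 52.4% in GABRP/KRT75, 51.4% in PDZRN3/TPM1 and 43.9% in CA6/ATP12A had an *NMB* UMI.

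In these 4 clusters, high in all libraries, the ratio of telogen over anagen lay under the median of 3.04 over clusters. *NMB* was 2.00-fold higher in telogen than in anagen in FGF18/PMP22 (1.64 to 2.45; 50 anagen cells), 1.62-fold in PDZRN3/TPM1 (1.53 to 1.72) and 1.16-fold in CA6/ATP12A (1.10 to 1.23), and GABRP/KRT75 stood at 2.85-fold (2.55 to 3.19). The largest ratios lay in clusters that were low before telogen, but not every low cluster had one. Ratios over anagen were 1.53-fold in IL1F10/KRT85 (17.9 CPM in anagen), 1.71-fold in DCN/NOTUM (23.3 CPM) and 2.34-fold in KRT27/KRT71 (13.6 CPM). In C3/LCN2, with its germ and bulge markers, *NMB* had 39.6 CPM in anagen, 89.8 in catagen and 511 in telogen, 12.9-fold over anagen (10.5 to 15.9) and 5.68-fold over catagen (5.07 to 6.39). After thinning, 3.50% of its anagen cells had an *NMB* UMI, under the 7.84% of the endothelial and mesenchymal cluster COL1A2/ACKR1, so this anagen level is not read as expression and the ratio over it is a description of the counts. In CLDN10/FNDC1 it had 29.97, 28.01 and 325 CPM. This cluster carried *ACTA2*, *TAGLN* and *MYL9* of the dermal sheath list together with epithelial basal markers and is left unnamed. ENPP1/SEMA3E had 59.3, 75.1 and 306 CPM, and ANGPTL2/EMP3, with 5 of 6 basal epidermis markers raised (*KRT5*, *KRT15*, *COL17A1*, *DST*, *ITGA6*), had 31.1, 27.5 and 173 CPM. The anagen shares of CLDN10/FNDC1 (4.74%), ENPP1/SEMA3E (7.52%) and ANGPTL2/EMP3 (4.03%) also lay under that of COL1A2/ACKR1. C3/LCN2 thus stood far under CA6/ATP12A in anagen and next to it in telogen.

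The counts of the dividing clusters followed the same direction at lower levels. PIMREG/CDKN3, mitotic by its markers, had 36.4, 14.3 and 151 CPM of *NMB*, H1-1/H2AC12 had 20.5, 16.1 and 109 CPM, and MCM3/MCM5, an S phase cluster with basal markers, had 27.9, 21.5 and 106 CPM. The differentiated epidermis-like clusters were lower, with 29.5, 15.04 and 79.9 CPM in KRT1/SEMA3C and 71.5, 26.3 and 80.6 CPM in KRT2/KRT77. After thinning, anagen *NMB* shares of PIMREG/CDKN3 (6.39%), H1-1/H2AC12 (3.02%), MCM3/MCM5 (3.37%) and KRT1/SEMA3C (4.49%) lay under the 7.84% of COL1A2/ACKR1. Telogen shares of H1-1/H2AC12 (9.52%), MCM3/MCM5 (11.6%), KRT1/SEMA3C (10.5%) and KRT2/KRT77 (12.4%) lay under its 13.04%. Shares under those of COL1A2/ACKR1 are not read as expression, so these differences describe counts. Its telogen share rests on 6 of 46 cells (4.94 to 26.3), so lying under it does not show that expression is absent. The same telogen shares lay above that of KRT27/KRT71 (2.61%, 0.541 to 7.43). The lowest telogen levels among clusters with at least 50 cells lay in IL1F10/KRT85 (27.4 CPM), which carries the cortex keratins *KRT85* and *KRT35*, in KRT27/KRT71 (31.8 CPM), in the immune-like RGS1/FCER1A (31.9 CPM from 5 UMIs) and in DCN/NOTUM (39.8 CPM). The range of *NMB* over clusters in telogen was 36.6-fold, from 27.4 to 1002 CPM.

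**Figure D3:**
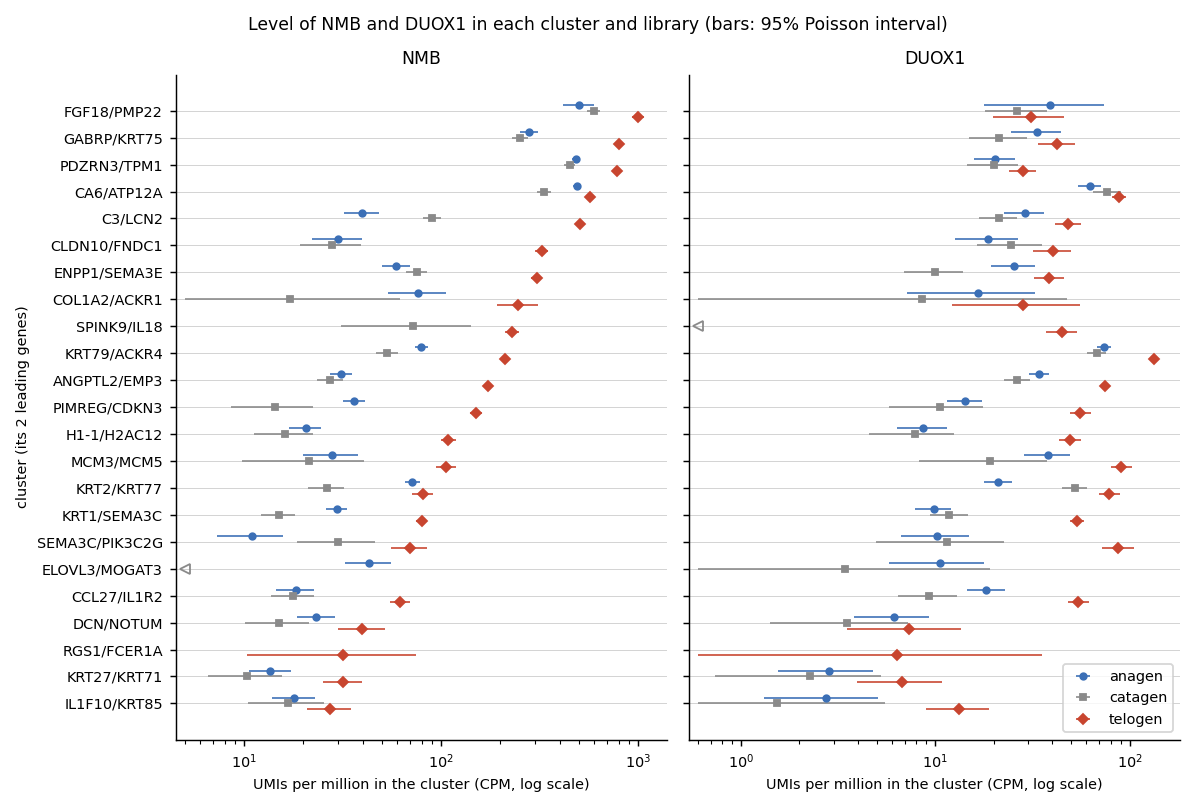
CPM of *NMB* (left) and *DUOX1* (right) on a log axis in every cluster with at least 50 cells in the library, ordered by the telogen level of *NMB*. Bars are 95% Poisson intervals, cut at the left edge where they reach it, and an open triangle at the edge marks a catagen cluster with 0 UMIs. Red telogen points lie to the right of both others in nearly every cluster, by the widest margin for *NMB* in C3/LCN2, CLDN10/FNDC1 and ANGPTL2/EMP3. For *NMB* they lie little to the right of anagen in KRT2/KRT77 and CA6/ATP12A.

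*DUOX1* had another order of clusters. KRT79/ACKR4 was highest in telogen, with 74.1 CPM in anagen, 67.8 in catagen and 134 in telogen (129 to 139), and the next cluster did not reach its interval. MCM3/MCM5 (38.1, 19.1 and 90.9 CPM), CA6/ATP12A (62.4, 76.8 and 88.2 CPM), SEMA3C/PIK3C2G (10.2, 11.5 and 87.4 CPM), KRT2/KRT77 (21.1, 52.3 and 78.8 CPM) and ANGPTL2/EMP3 (34.3, 26.4 and 75.2 CPM) followed in telogen, each overlapping its neighbour in that order. In anagen and catagen KRT79/ACKR4 and CA6/ATP12A were the 2 highest and overlapped. Of the 4 clusters richest in *NMB*, CA6/ATP12A was thus also among the highest in *DUOX1*, while the others were lower in telogen, with 28.2 CPM in PDZRN3/TPM1, 31.0 in FGF18/PMP22 and 42.5 in GABRP/KRT75.

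The ratio of *DUOX1* in telogen over anagen was 1.81-fold in KRT79/ACKR4 (1.66 to 1.98) and 2.20-fold in ANGPTL2/EMP3 (1.92 to 2.52). It was wider in several clusters that had been low, 5.46-fold in KRT1/SEMA3C (4.37 to 6.91; 9.84, 11.8 and 53.8 CPM), 5.73-fold in H1-1/H2AC12 (4.19 to 7.99) and 3.92-fold in PIMREG/CDKN3 (3.08 to 5.03). The thinned anagen shares of these clusters (1.47%, 1.01% and 2.18%) lay under the 3.92% of COL1A2/ACKR1 and are not read as expression, so these ratios too describe counts. SEMA3C/PIK3C2G had the widest ratio, 8.61-fold (5.58 to 13.7). Its thinned anagen share (2.20%), like that of KRT2/KRT77 (2.53%), also lay under the 3.92% and is not read as expression. SEMA3C/PIK3C2G was shallow in telogen, with a median of 1163 UMIs per cell against 3980 in anagen, where no cell held fewer than 2404. In it 36.2% of the genes measured were at least 2-fold higher in telogen over anagen. *DUOX1* was low in every library in 3 clusters, with 2.85, 2.25 and 6.77 CPM in KRT27/KRT71, 2.75, 1.53 and 13.2 CPM in IL1F10/KRT85, and 6.10, 3.51 and 7.37 CPM in DCN/NOTUM. With cells put into classes by markers alone, telogen levels were 15.1 CPM in the inner root sheath class, 23.3 CPM in the hair cortex class and 41.6 CPM in the class of the study's fibroblast markers (*DCN*, *DPP4*), above those of these clusters. Of KRT79/ACKR4 cells thinned to 1500 UMIs, 8.81% had a *DUOX1* UMI in anagen, 8.43% in catagen and 18.8% in telogen (17.1 to 20.5).

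Over all clusters with at least 50 cells in both libraries, *NMB* was higher in telogen than in anagen in 20 of 20 and than in catagen in 21 of 21, and the interval of the ratio lay above 1 in 19 and 20 of them. The interval included 1 in KRT2/KRT77 over anagen (1.13-fold, 0.968 to 1.31) and in IL1F10/KRT85 over catagen (1.63-fold, 0.988 to 2.78). *NMB* was at least 2-fold higher in 14 of 20 and 17 of 21, with median ratios of 3.04 and 3.50. *DUOX1* was higher in 19 of 20 and, by its ratio, 20 of 21 (interval above 1 in 16 and 17), at least 2-fold in 11 and 13, with median ratios of 2.17 and 2.93. In the remaining cluster over catagen, SPINK9/IL18, catagen had 0 *DUOX1* UMIs and telogen 117 (44.7 CPM), so telogen was higher there too, with a lower limit of 1.32-fold and no ratio. No cluster had an interval below 1 for either gene. The exception over anagen was FGF18/PMP22, with 38.9 CPM from 9 *DUOX1* UMIs in anagen and 31.0 from 24 in telogen. Pairs of a gene and such a cluster with at least 10 CPM in either library numbered 112462 over anagen and 122657 over catagen. Of these, 6.59% and 8.02% were at least 2-fold higher in telogen. The counts of the members used no such floor. Those of *DUOX1* include KRT27/KRT71 (2.85, 2.25 and 6.77 CPM) and, over catagen, DCN/NOTUM (3.51 and 7.37 CPM), both under it. The genes were chosen from the sums of these same cells, so the counts describe how widely the difference is shared and support nothing further.

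Each cluster's part of the whole-library difference was taken as its UMIs of the gene per 1000000 library UMIs, telogen minus the other library, and split into a part from the level inside clusters and a part from the share of the library's UMIs that each cluster holds. For *NMB* the difference of 165 CPM over anagen lay 77.0% in levels and 23.0% in cluster sizes, and the 162 CPM over catagen lay 100.3% in levels (87.0% without integration, 76.1% with marker classes in place of clusters). Over catagen the size parts of single clusters went both ways and nearly cancelled, to -0.46 CPM. They were 15.1 CPM in KRT79/ACKR4 and 13.2 in CA6/ATP12A against -12.2 in FGF18/PMP22 and -12.1 in C3/LCN2. For *DUOX1* the 47.2 CPM over each library lay 76.2% in levels over anagen and 78.8% over catagen. Put the other way, telogen cluster sizes with anagen levels would give 104 CPM of *NMB* and 34.2 CPM of *DUOX1*, and anagen cluster sizes with telogen levels 193 and 58.9 CPM.

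KRT79/ACKR4 held the largest single part in all 4 comparisons. It made up 9.58% of anagen, 8.81% of catagen and 20.2% of telogen UMIs. It accounted for 21.3% of the *NMB* difference over anagen and 23.5% over catagen, and for 42.3% and 44.7% of that of *DUOX1*. *NMB* was not enriched in it: the cluster held 17.4% of telogen *NMB* UMIs, less than its share of all telogen UMIs. Its telogen *NMB* level was 212 CPM, under the 245 CPM of the whole library. For *DUOX1* its size gave more than its level, 11.02 against 8.93 CPM over anagen. ANGPTL2/EMP3 came next over anagen, with 13.2% for *NMB* and 15.8% for *DUOX1*, mostly by level. It too held less of the telogen *NMB* UMIs (10.1%) than of all telogen UMIs (14.3%). For *NMB*, PDZRN3/TPM1 (12.4%), CA6/ATP12A (10.2%) and C3/LCN2 (10.1%) followed. CA6/ATP12A contributed 12.6 CPM by size and 4.20 CPM by level, and C3/LCN2 1.30 CPM by size and 15.3 CPM by level. For *DUOX1*, KRT1/SEMA3C (9.91%) and CA6/ATP12A (6.70%) followed. The 3 clusters with the largest parts together held 46.9% of the *NMB* difference and 68.0% of the *DUOX1* difference over anagen. By cluster the *DUOX1* difference was thus the more concentrated, in clusters with 20.2%, 14.3% and 10.7% of telogen UMIs. By cell *NMB* was the more concentrated in telogen, with 22.9% of its UMIs in the top 1% of cells against 13.8% for *DUOX1*.

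When the libraries were clustered without integration, the KRT79-led cluster (KRT79/BTC) held 39.5% of the *NMB* and 61.5% of the *DUOX1* difference over anagen, and the level part of *DUOX1* was 41.2%. Over catagen the level part of *DUOX1* without integration was 76.5%. The split of the *DUOX1* difference over anagen between the clusters' shares of library UMIs and their levels thus depended on how cells of the libraries were matched.

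**Figure D4:**
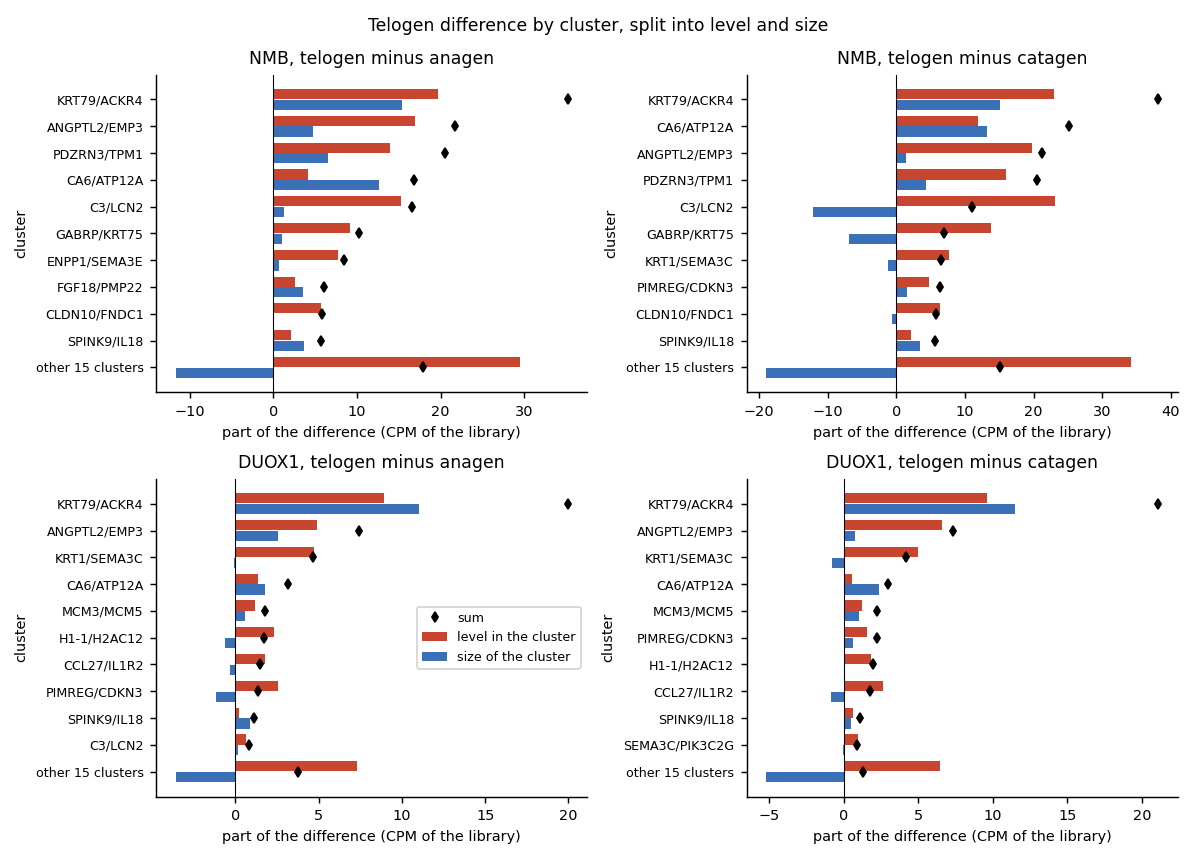
Parts of the whole-library difference in CPM for *NMB* (top) and *DUOX1* (bottom), telogen minus anagen (left) and minus catagen (right), in the 10 clusters with the largest sums and the other 15 together. Red bars are the part from the level inside the cluster, blue bars the part from its share of library UMIs, and black diamonds their sum. KRT79/ACKR4 leads every panel, and for C3/LCN2 in *NMB* over catagen a positive level part stands beside a negative size part.

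The 2 genes were not carried by the same cells in the same proportion. Per *DUOX1* UMI there were 3.32 *NMB* UMIs in the whole anagen library and 3.44 in telogen, a ratio used here only to compare cells with each other. In telogen it ran from 0.795 in SEMA3C/PIK3C2G, 1.02 in KRT2/KRT77 and 1.58 in KRT79/ACKR4 to 10.5 in C3/LCN2, 18.8 in GABRP/KRT75, 27.8 in PDZRN3/TPM1 and 32.4 in FGF18/PMP22. In C3/LCN2 it was 1.38 in anagen, where neither gene's share is read as expression, and 4.24 in catagen. By counts, *NMB* had 39.6, 89.8 and 511 CPM in these cells and *DUOX1* 28.8, 21.2 and 48.5 CPM. After thinning, 266 of 11570 telogen cells (2.30%) had a UMI of both genes, beside 254.75 cells given by the product of the separate shares. Within KRT79/ACKR4 these values were 90 of 2120 cells and 100.25 cells. Cells with both genes were thus about as frequent as the separate shares give.

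**Figure D5:**
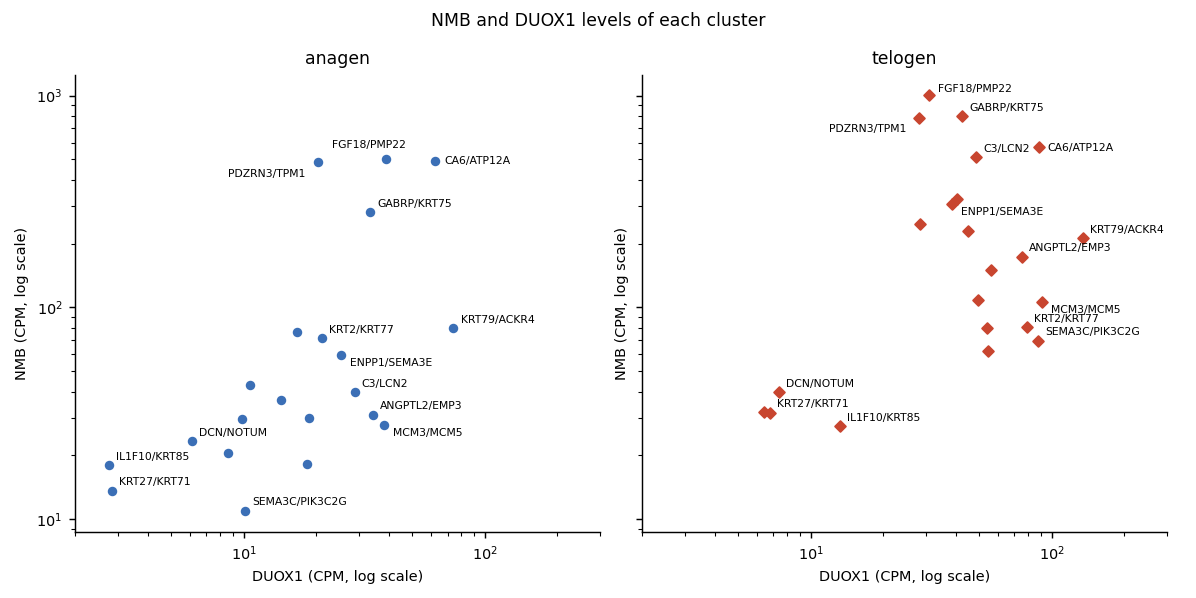
*NMB* against *DUOX1*, both in CPM on log axes, for each cluster with at least 50 cells in anagen (left) and in telogen (right). PDZRN3/TPM1, FGF18/PMP22, GABRP/KRT75 and CA6/ATP12A are highest in *NMB* in both libraries, KRT79/ACKR4 has the highest *DUOX1*, and the low corner holds KRT27/KRT71, IL1F10/KRT85 and DCN/NOTUM in both libraries.

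Free RNA can give UMIs in cells that do not express a gene, so shares were read beside those of 2 clusters. COL1A2/ACKR1 lies outside the keratinocyte layers, and KRT27/KRT71 is inner root sheath-like. COL1A2/ACKR1, a small cluster with 4 endothelial and 4 mesenchymal markers raised, had median depths of 3428, 1745 and 3697 UMIs. After thinning, 3.92% of its anagen, 3.23% of its catagen and 4.35% of its telogen cells (2 of 46; 0.531 to 14.8) had a *DUOX1* UMI, so the whole-library shares lay inside the intervals of these few cells. KRT27/KRT71, at 4554, 6885 and 12519 UMIs, had 0.755% in anagen, 0 of 213 cells in catagen, which allows up to 1.41%, and 3.48% in telogen (0.956 to 8.67). The telogen share of KRT79/ACKR4 (18.8%) was above the intervals of both. Telogen *DUOX1* shares of ANGPTL2/EMP3 (9.71%), CA6/ATP12A (11.3%) and KRT1/SEMA3C (8.34%), which hold the next largest parts of its difference, lay inside that of COL1A2/ACKR1. KRT1/SEMA3C also lay inside that of KRT27/KRT71, and the others lay above it. For *NMB*, 7.84% of anagen, 0 of 31 catagen (allowing up to 9.68%) and 13.04% of telogen cells of COL1A2/ACKR1 had a UMI, against 3.77%, 2.35% and 2.61% of KRT27/KRT71. *NMB* shares in PDZRN3/TPM1, GABRP/KRT75, FGF18/PMP22, CA6/ATP12A, C3/LCN2, CLDN10/FNDC1 (29.5%) and ENPP1/SEMA3E (26.8%) in telogen were above the intervals of both. The telogen *NMB* shares of KRT79/ACKR4 (25.2%) and ANGPTL2/EMP3 (19.9%), which hold the largest parts of the difference over anagen, were above the interval of KRT27/KRT71 (0.541 to 7.43) and inside the wide one of COL1A2/ACKR1 (6 of 46 cells; 4.94 to 26.3). By level, COL1A2/ACKR1 had 76.7, 17.1 (2 UMIs) and 248 CPM (193 to 313) of *NMB*, 3.23-fold over anagen (2.14 to 4.95). Telogen levels were 212 CPM in KRT79/ACKR4 and 173 CPM in ANGPTL2/EMP3, neither above that of COL1A2/ACKR1. The part of free RNA in their rise was not tested. Shares at or below those of COL1A2/ACKR1, such as the *DUOX1* share of 2.63% in C3/LCN2 or 2.37% in PDZRN3/TPM1 in anagen, are not read as expression. With so few cells in COL1A2/ACKR1, this does not show that expression is absent. Its endothelial-like cells were picked as a type that should lack *DUOX1*, not as one that should lack *NMB*.

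Several other measures moved with telogen, and their part in the result was not tested. The summed level of 5 outer sheath markers was 17053, 17397 and 28583 CPM in anagen, catagen and telogen, that of 6 basal markers 12391, 15036 and 22826 CPM, and that of 5 upper follicle markers 6323, 5628 and 8443 CPM. All of these markers were above 0 in every library. The inner root sheath list went the other way (1970, 2295 and 974 CPM), as did the cortex list (989, 480 and 307 CPM for 2 of its 4 genes with a row). SPINK9/IL18 held 2308 telogen cells against 33 anagen and 111 catagen cells, with a telogen median of 995 UMIs. It gave 3.47% of the *NMB* and 2.32% of the *DUOX1* difference over anagen. The anagen library held no cell under 2404 UMIs, so cells that shallow could not be counted there. The part of this unequal lower bound in the cluster sizes over anagen was not tested. Without cells above 50000 UMIs the log2 ratios over anagen were 1.60 for *NMB* and 1.59 for *DUOX1*. The 16 telogen cells of CYP4X1/ABCC11, with a median of 89151 UMIs, held 461 *NMB* UMIs, or 2.53% of the difference.

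The oxidase partners of *DUOX1* were found at low levels. *DUOXA1*, its maturation factor, gave 44, 57 and 210 UMIs (0.531, 1.11 and 2.03 CPM), with a log2 ratio of 1.93 over anagen (1.46 to 2.44) and 0.88 over catagen (0.45 to 1.33). *DUOX2*, the sister oxidase, gave 25, 22 and 119 UMIs, and its own factor *DUOXA2* gave 3, 6 and 17. All 3 were thus highest in telogen by CPM, from few molecules. For *DUOXA2* the difference over catagen did not exceed counting error (log2 0.50, -0.91 to 2.13). KRT79/ACKR4, with 20.2% of the telogen UMIs, held 38.1% of the *DUOXA1*, 37.0% of the *DUOX2* and 37.9% of the *DUOX1* UMIs of that library, and in CA6/ATP12A *DUOXA1* stood at 1.76, 5.95 and 4.32 CPM. In KRT27/KRT71 and IL1F10/KRT85 *DUOXA1* had 0 UMIs in every library.

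Among the 17 genes of NADPH oxidases and their subunits, the 2 others with at least 10 CPM were *CYBA* and *RAC1*. *CYBA*, the p22phox subunit used by other oxidases of the family, had 22.6, 22.6 and 38.8 CPM (log2 0.78 over both). *RAC1*, a small GTPase with many other roles, had 288, 187 and 299 CPM (log2 0.05 and 0.68). Neither reached 2-fold in either comparison. Other oxidases were scarce, with 43, 47 and 50 UMIs of *NOX1*, 65, 44 and 63 of *CYBB*, and no more than 3 of *NOX3*, *NOX4* and *NOX5* in any library.

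Enzymes that remove peroxide and superoxide formed a list of 21 genes, 17 with a row. Of the 11 with at least 10 CPM in each comparison, 1 was at least 2-fold higher and 2 at least 2-fold lower in telogen than in anagen, and 0 were higher and 1 lower than in catagen. The list's median log2 ratios were 0.29 and 0.42, where those of all genes were -0.18 and -0.25 and 7.83% and 12% of all genes were at least 2-fold lower. The lower ones were *GPX3* and *TXNRD1* over anagen and *TXNRD1* over catagen. The higher one was the peroxiredoxin *PRDX1*, with 44.1, 109 and 94.9 CPM (log2 1.11 over anagen, -0.21 over catagen). *CAT*, the catalase gene, had 49.1, 77.7 and 61.5 CPM. *GPX1* (77.4, 56.7 and 106 CPM), *PRDX4* (92.1, 83.8 and 133 CPM), *PRDX6* (146, 118 and 178 CPM) and *SOD1* (323, 253 and 354 CPM) were higher in telogen by less than 2-fold, and *PRDX2*, at 717, 484 and 648 CPM, lay between the others in telogen. Of 6 peroxidases, which can use the peroxide of a dual oxidase, 4 had a row and 0 reached 10 CPM.

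Of the 5 bombesin peptides and receptors 4 had a row, and *NMB* was the one with more than 1 UMI in a library. *NMBR*, the receptor of neuromedin B, had 0 UMIs in all 3 libraries, a count that allows up to 3 UMIs in each. *GRPR*, the related receptor, had 1 UMI in each library and *BRS3* had 0. The gene for the sister peptide, *GRP*, has no row on the gene list. Of 22 other neuropeptides and small peptide signals, 13 had a row and *PTHLH* and *EDN2* were the ones above 10 CPM. *PTHLH*, which marks the ENPP1/SEMA3E cells, had 9.18, 18.5 and 5.50 CPM, lowest in telogen. *EDN2* had 10.6, 5.90 and 5.70 CPM, and its telogen and catagen levels did not differ beyond counting error (log2 -0.05, -0.25 to 0.16). *NPPC*, at 6.38, 4.58 and 9.38 CPM, was the one list gene nearest to 10 CPM in telogen.

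Neighbouring genes were taken from RefSeq annotation of the assembly Bosgru_T2T1.0 for gene order alone. *NMB* lies between *SEC11A* and *WDR73*, and *DUOX1* between *DUOXA1* and *SHF*. *SEC11A*, a signal peptidase subunit, had 119, 114 and 175 CPM (log2 0.56 and 0.62), whereas *WDR73* had 0.640, 1.63 and 0.822 CPM and was lower in telogen than in catagen (log2 -0.99, -1.44 to -0.54). *SHF*, an adaptor protein gene, had 23.7, 18.7 and 37.6 CPM (log2 0.67 and 1.01). *DUOXA1* and *SHF* on either side of *DUOX1* and *SEC11A* beside *NMB* were thus also highest in telogen, by less than *DUOX1* and *NMB* except for *DUOXA1* over anagen. Whether reads of overlapping neighbours were shared between these genes was not tested.

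Genes with the most similar pattern were sought by Pearson's r of log2(CPM + 1) over 65 sums of a cluster in a library (at least 50 cells), among 4028 genes. These points share libraries and depth, so r is a description without a p. For *NMB* they were *GSN* (r = 0.82), which encodes the actin-severing protein gelsolin, *CRABP2* (0.80), a carrier of retinoic acid, *PHYHIP* (0.77), *S100A2* (0.76), a calcium-binding protein of keratinocytes, and the sheath keratin *KRT17* (0.76). *GSN* had 119, 190 and 247 CPM in anagen, catagen and telogen and, like *NMB*, was highest in FGF18/PMP22 in both earlier libraries. In telogen *GSN* was highest in GABRP/KRT75 and *NMB* in FGF18/PMP22. For *DUOX1* they were *CBR1* (0.76), a carbonyl reductase, *ECM1* (0.75), a secreted matrix protein of skin, the transcription factor *IRX3* (0.68), *ANXA2* (0.66) and *TMEM43* (0.65). *CBR1* had 135, 97.5 and 286 CPM and, like *DUOX1*, was highest in KRT79/ACKR4 in anagen. The highest cluster differed in catagen (KRT79/ACKR4 for *CBR1*, CA6/ATP12A for *DUOX1*) and in telogen (KRT2/KRT77 for *CBR1*, KRT79/ACKR4 for *DUOX1*). The r of *NMB* with *DUOX1* was 0.60. Its points span all libraries, so it includes the telogen difference by which both genes were chosen.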

How the data were processed

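The authors deposited raw, unnormalized counts, the UMIs of every gene in every cell barcode of a library. Per the file headers these came from Cell Ranger 4.0.0 (anagen), 3.1.0 (catagen) and 6.0.2 (telogen), whereas the submitters' notes give 2.1.1. Reads were aligned with STAR inside it, and the genome build is not given in the sources used here. Totals after the filter were 82816430, 51537357 and 103430933 UMIs. Cells with at least 200 genes were kept. The 3 libraries were integrated and clustered with Seurat 5.3.0 (R 4.3.3), with 1985 of 2000 variable genes, 30 components, 20 neighbours and resolution 0.8. Doublets were left in: Scrublet in scanpy 1.11.5 called 0 cells in each library with its own threshold, so the top 5% of scores were removed as an alternative. UMIs were summed per library or cluster and given as CPM with exact Poisson intervals, exact conditional intervals for ratios and Clopper-Pearson intervals for shares. What a share or count of 0 allows was instead set at 3 counts of the total, below the Clopper-Pearson bound. No test was made, since each stage has 1 library. Of 93 markers 82 have a row, and of 71 genes in 5 pathway lists 55 have one. The members and the lists were chosen with earlier results of these data known. Genes were named by rule: members, list genes with at least 50 CPM, the 5 most like genes, the 5 leading genes of a described cluster and the 3 genes ranked before and after each member. Markers, partners, receptors, scarcer list genes and neighbours named beyond it were chosen after their values were seen.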

Additional observations from a re-analysis of the deposited data

How the results depend on the processing

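With 1 library per stage no library could be left out. No paired analysis was possible because each stage has a single library. Both genes stayed higher in telogen in all alternatives run. Scaling by the median of ratios gave log2 ratios of 1.86 over anagen and 2.07 over catagen for *NMB* and 1.81 and 2.06 for *DUOX1*. Averaging the CPM of single cells gave 1.46 for *NMB* and 1.78 for *DUOX1* over catagen, and a minimum of 1000 genes per cell gave 1.42 for *DUOX1* over catagen. The level part of the difference over anagen became 81.8% for *NMB* with marker classes in place of clusters and 41.2% for *DUOX1* without integration. The largest single part for *NMB* was 26.5% at resolution 0.4, 17.1% at 1.2, 19.9% with 15 components, 39.5% without integration, 16.9% with marker classes, 23.2% with at least 1000 genes per cell and 20.4% without the highest 5% of Scrublet scores. For *DUOX1* it was 34.5% at resolution 1.2, 39.4% with 15 components, 61.5% without integration and 25.3% with marker classes. A KRT79-led cluster, or the upper follicle class, held the largest part in each. Shares of telogen cells with a UMI were 34.9% (*NMB*) and 17.96% (*DUOX1*) at 3000 UMIs and 44.2% and 28.9% without thinning, as deeper cells show more genes. With Spearman's rho 2 of the 5 most like genes of *NMB* and 3 of 5 of *DUOX1* were kept. Leaving out cells above 50000 UMIs was added after seeing the data. The cause of these shifts was not tested beyond depth, which sets the shares.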
